A study of Mus musculus with 6 samples.

Results

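The 6 genes Col2a1, Col9a1, Col9a2, Col9a3, Col11a1 and Col11a2 encode the chains of the cartilage collagen fibril, and Jun peaks were examined around them in mouse rib chondrocytes. A peak was counted as a member when its midpoint lay in 1 of 6 fixed mm9 windows, each named for its gene. In all, 183 of the 99162 Jun peaks (0.185%) were members. Jun, which pairs with Fos or related proteins to form AP-1, had been precipitated from cross-linked chromatin of chondrocytes freshly digested from the rib cartilage of untreated wild-type ICR mice at postnatal day 1, and a library of input DNA was made from the same kind of cells. There was 1 Jun library and 1 input library, and the labels name no sort of the cells and no number of animals. The other 4 libraries of the study are RNA-seq of sorted Col10a1mCherry rib chondrocytes and were not analysed here. The study intersected Jun and Sox9 binding to ask how AP-1 acts as chondrocytes enlarge and become hypertrophic.

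Each peak is known by its chromosome, start and end only. No height, p-value or read depth comes with it, there is no replicate, and the input values were not used here, so every value is a description of 1 list and no test between conditions was possible. A peak does not say in what share of the cells Jun was bound, nor which gene it acts on. No expression values were at hand to check the cells against chondrocyte markers. Intervals given with counts are exact Poisson or binomial 95% intervals, which cover counting error only and which grouping of peaks makes too narrow.

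The cartilage fibril is an alloy of collagens. Collagen II, a triple helix of chains from Col2a1, is the bulk of it. Collagen XI, with chains from Col11a1, Col11a2 and Col2a1, sits in the fibril core and limits its thickness, and collagen IX, with 1 chain each from Col9a1, Col9a2 and Col9a3, lies on its surface and links it to the surrounding matrix. Sox9 is known to activate several of these genes through enhancers in chondrocytes, and chondrocytes make less collagen II and more collagen X as they become hypertrophic. AP-1 dimers are known to bind DNA at TGAGTCA or TGACTCA, both covered by the letters TGANTCA, in which N is any base.

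The sequence of the peaks themselves needs the mm9 genome and was not read. RefSeq promoter sequences of the later build GRCm38 gave 5 windows for 4 of the genes (Col9a1 with 2 start sites, Col9a2, Col11a1 and Col11a2). Each window runs from 250 bases before to 50 bases after a start. The 100 bases before each start are shown as a view of the DNA at the starts of the collagen IX and XI genes, with capitals where the letters match TGANTCA on either strand but for 1 letter. These positions cannot be set against the mm9 peaks, and whether a Jun peak covers any of these starts was not determined.

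Col9a1, first start (chr1:24177510-24177609, + strand): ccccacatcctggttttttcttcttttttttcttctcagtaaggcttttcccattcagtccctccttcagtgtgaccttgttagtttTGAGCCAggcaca
Col9a1, second start (chr1:24195103-24195202, + strand): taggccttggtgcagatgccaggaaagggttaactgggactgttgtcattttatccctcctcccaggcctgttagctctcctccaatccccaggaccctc
Col9a2 (chr4:121039466-121039565, + strand): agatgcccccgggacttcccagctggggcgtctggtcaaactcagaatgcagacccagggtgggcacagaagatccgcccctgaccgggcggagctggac
Col11a1 (chr3:114030440-114030539, + strand): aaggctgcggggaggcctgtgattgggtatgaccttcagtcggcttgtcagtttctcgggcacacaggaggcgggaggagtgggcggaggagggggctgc
Col11a2 (chr17:34039038-34039137, + strand): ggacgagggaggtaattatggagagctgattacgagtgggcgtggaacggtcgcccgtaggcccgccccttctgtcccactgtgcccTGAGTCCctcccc

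None of the 5 windows held TGANTCA exactly, on either strand, against 7.81% of 32851 windows of all genes. The letters TGACGTCA, to which some AP-1 dimers also bind, were in none of the 5 and in 1.79% of all windows. The Sox-type letters AACAAT and ACAAAG were also in none of the 5, against 10.7% and 18.7% of all windows. A match but for 1 letter was present in 3 of the 5 windows, the pair from Col9a1 and that of Col11a2, against 69.4% of all windows. With 5 windows, the exact 95% interval of a share of 0 is wide, and the absence of letters here says nothing of Jun in the gene bodies. Of 10 other cartilage matrix genes looked up in the same way, 8 had a window. TGANTCA was in that of Ucma, which encodes a small cartilage matrix protein, and in none of those of Acan, Hapln1, Matn1, Matn3, Chad, Fmod and Prelp. Comp and Snorc were the remaining 2.

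All 6 windows held Jun peaks, and all were denser than the autosomes as a whole. Together they held 183 peaks in 680 kb, or 26.9 per 100 kb (23.2 to 31.1), against 4.07 per 100 kb over the 19 autosomes, a ratio of 6.61. Col2a1 had the most, 52 peaks in 100 kb, and Col9a2 the fewest, 10 peaks in 60 kb. The map of peaks by window shows where they stood.

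**Figure D1:**
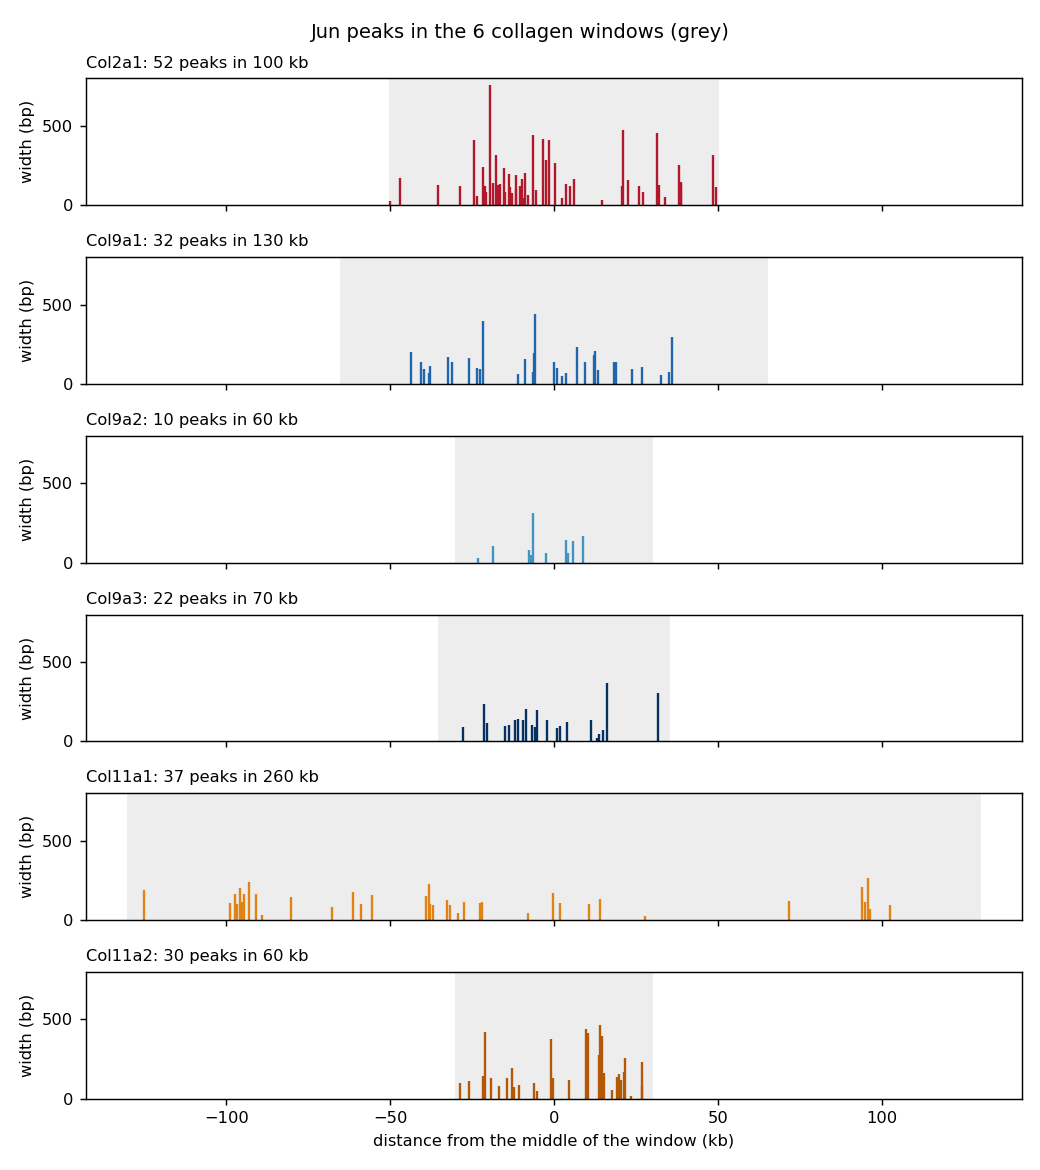
Each line is 1 Jun peak, placed by its distance in kb from the middle of its window (x axis) and drawn as high as the peak is wide in bp (y axis). The grey area is the window. In Col2a1 and Col11a2 the outermost peaks stood close to both ends of the window, though those of Col2a1 were unevenly spread. The 37 peaks of Col11a1 were scattered over 228 kb of its 260 kb in separate groups.

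Col2a1, the gene of collagen II, lay in the window on chromosome 15 from 97780001 to 97880000, next to Tmem106c and Senp1 in the gene order of GRCm38. Its 52 peaks gave 52.0 per 100 kb (38.8 to 68.2), 12.8 times the autosomal mean. Of 25654 tiles of 100 kb across the genome, 16 (0.0624%) held as many or more. The peaks reached both ends of the window and covered 9555 bp, or 9.56% of it. They were not spread evenly: when peaks with centres within 5 kb were chained, 35 of the 52 (67.3%) fell in 1 group of 34.9 kb from 97801135 to 97836079. The fullest 10 kb step, from 97810001 to 97820000, held 15 peaks and the next held 9. At the core of the group, 9 peaks lay within 1000 bp of their neighbours in a region of 3785 bp, from 97814691 to 97818475. The 8 spaces between their centres measured between 103.5 and 988 bp.

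The Col2a1 window also held the widest member, 757 bp from 97810228 to 97810984, which was the 4th widest of all Jun peaks. A further 6 of its peaks measured between 409 and 473 bp. Those at 97823236 (442 bp), 97826575 (418 bp) and 97828227 (411 bp) lay within 5.40 kb of each other in the same dense group, and 1 at 97805405 (409 bp) near its start. The remaining 2, at 97850856 (473 bp) and 97861154 (459 bp), lay outside the dense group toward the high-coordinate end of the window, where peaks were fewer. Between the dense group and those peaks a stretch from 97836079 to 97850645 held a single peak, of 34 bp. Which of these peaks lie in exons, introns or beside Col2a1 was not determined, because mm9 gene positions were not at hand. The same holds for the other windows. A gene name stands here for its window, and some peaks may lie in a neighbouring gene.

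The windows of the 3 genes of collagen IX, the fibril-associated collagen, held unlike numbers of peaks but were also of unlike length. Col9a3, on chromosome 2 from 180310001 to 180380000 and next to Ogfr and Tcfl5, held 22 peaks, or 31.4 per 100 kb (19.7 to 47.6). Col9a1, on chromosome 1 from 24160001 to 24290000 and next to Fam135a and Col19a1, held 32 peaks, or 24.6 per 100 kb (16.8 to 34.7). Col9a2, on chromosome 4 from 120690001 to 120750000 and next to Smap2 and Zmpste24, held 10 peaks, or 16.7 per 100 kb (7.99 to 30.7). The 3 intervals overlapped one another. As many peaks or more were found in 210 of 36637 tiles of 70 kb (0.573%) for Col9a3, in 152 of 19738 tiles of 130 kb (0.770%) for Col9a1, and in 2064 of 42743 tiles of 60 kb (4.83%) for Col9a2.

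Within Col9a1 the peaks began 21.4 kb into the window and ended 28.9 kb before its end. Chained within 10 kb, they formed a group of 11 from 24181293 to 24203431 and a group of 21 from 24214098 to 24261214, parted by 10.9 kb between centres. Its widest peaks closed the first group (400 bp from 24203032 to 24203431) and stood near the start of the second (440 bp from 24219089 to 24219528). No 10 kb step held more than 5 peaks. Col9a3 was more concentrated, with 13 of its 22 peaks chained within 5 kb in 18.8 kb, from 180330132 to 180348954, and 9 of these in 1 step of 10 kb. Its widest peak measured 368 bp (180360977 to 180361344) and its last one, of 306 bp, stood 15.7 kb farther on by itself. The 10 peaks of Col9a2 all lay in the first 38.8 kb of its window, and the 21.2 kb after the last held none. The widest, 314 bp from 120713362 to 120713675, ended a set of 3 within 1238 bp, and 6 of the other 9 were narrower than 110 bp.

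The collagen XI genes differed in density. Col11a2, on chromosome 17 from 34160001 to 34220000 and next to Rxrb and H2-Oa, held 30 peaks, or 50.0 per 100 kb (33.7 to 71.4). Only 51 of 42743 tiles of 60 kb (0.119%) held as many or more. Col11a1, on chromosome 3 from 113700001 to 113960000 and next to Rnpc3 and Olfm3, held 37 peaks in a window more than 4 times as long, or 14.2 per 100 kb (10.0 to 19.6), and 407 of 9879 tiles of 260 kb (4.12%) held as many or more. The intervals of the pair did not overlap. In Col11a2 all 30 peaks formed 1 group with no space over 5.27 kb between centres, and they covered 9.28% of the window. In Col11a1 the peaks belonged to 8 groups, chained within 10 kb, and covered 1.83%.

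Of the 9 peaks of Col11a2 of at least 200 bp, 5 followed each other, with widths of 440, 413, 278, 467 and 396 bp, in a stretch from 34199503 to 34204892. The others stood apart along the window, with widths of 420 bp (34168736 to 34169155), 374 bp (34188883 to 34189256), 257 bp (34211555 to 34211811) and 229 bp (34216734 to 34216962). The 229 bp peak overlapped one of 82 bp that starts at 34216700. In Col11a1 the fullest group chained within 5 kb held 9 peaks in 9.55 kb (113731198 to 113740746). Another set of 10, chained within 10 kb, ran from 113790921 to 113808219. A set of 5 stood near the far end (113923995 to 113932708) and included the widest peak of the window, 264 bp from 113925833 to 113926096. The longest space between centres in any of the 6 windows, 44.0 kb, lay between the peaks that start at 113857720 and 113901649, and the second of these stood alone before that set.

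Ranked by density, the order was Col2a1, Col11a2, Col9a3, Col9a1, Col9a2 and Col11a1. No gene's interval was clear of that of the next in this order. The interval of Col2a1 did not overlap those of Col9a1, Col9a2 and Col11a1, and that of Col11a2 did not overlap those of Col9a2 and Col11a1. That of Col9a3, from 19.7, was only just clear of that of Col11a1, up to 19.6. Since grouping of peaks makes the intervals too narrow, these 2 genes cannot be told apart by it. Counting groups in place of peaks changed this order. When peaks within 1000 bp were merged, Col11a2 led with 17 regions (28.3 per 100 kb) and Col2a1 followed with 23 regions (23.0 per 100 kb), since 1 merged region of Col2a1 held 2.26 peaks on average against 1.43 to 1.76 in the other windows. Col9a3 then had 14 regions (20 per 100 kb).

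Every window was denser than the stretches beside it, though for Col9a2 the interval of the ratio included 1. The comparison took flanks of the window's own length on each side. Col2a1 had 52.0 peaks per 100 kb in its window, against 5.0 in its flanks, where 10 peaks stood in 200 kb, a ratio of 10.4 (5.23 to 23.0). Col11a1 had 14.2 per 100 kb, against 2.69 in its flanks (ratio 5.29, 2.79 to 10.6), and all 14 flank peaks were on the low-coordinate side. The ratio was 4.92 (2.51 to 10.2) for Col9a1, with 24.6 against 5.0 per 100 kb, and 2.93 (1.45 to 6.08) for Col9a3, with 31.4 against 10.7. Col11a2 had 50.0 peaks per 100 kb against 18.3 in its flanks, the densest surroundings of the 6, and a ratio of 2.73 (1.52 to 4.96). Its flanks were unlike, with 19 peaks on the high-coordinate side and 3 on the low-coordinate side, so the ratio averages 2 different sides. For Col9a2 the ratio of 2.22, from 16.7 against 7.5 per 100 kb, had an interval from 0.812 to 6.18. Here too the sides differed, with 8 flank peaks on the low-coordinate side and 1 on the high-coordinate side. Against wider flanks, of 500 kb on each side, the ratio was 5.81 (3.70 to 8.90) for Col11a2, 5.82 (3.38 to 9.72) for Col9a3 and 8.21 (4.83 to 14.0) for Col9a1. For Col9a2 it was 4.50 (2.00 to 9.24), so that the interval lay above 1 there too. The wider flanks of Col9a2 held 33 peaks on the low-coordinate side and 4 on the high-coordinate side, so this ratio also averages 2 different sides.

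**Figure D2:**
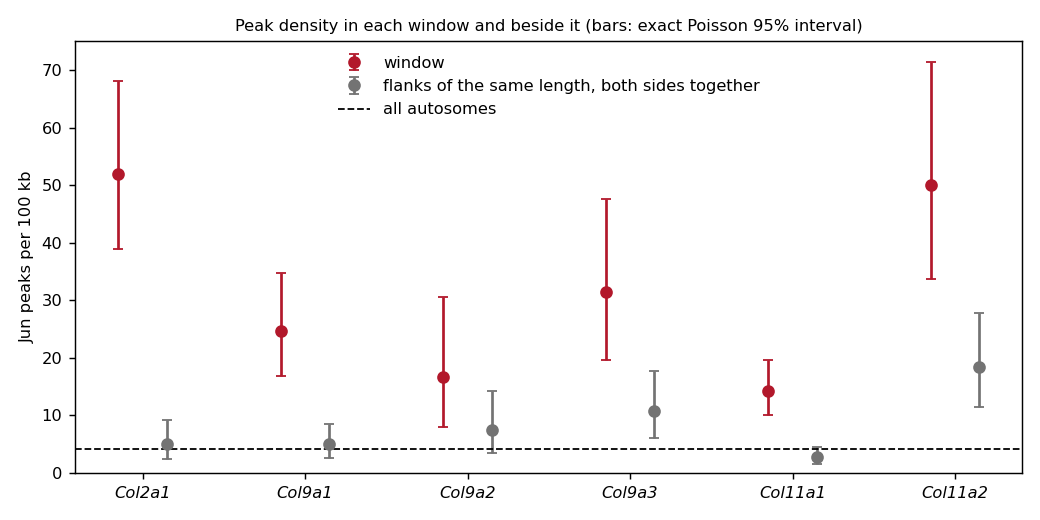
Jun peaks per 100 kb (y axis) in each window (red) and in its flanks of the same length, both sides together (grey), for the 6 genes, with exact Poisson 95% intervals as bars and the autosomal mean of 4.07 as a dashed line. The window point is above the flank point for every gene, and the bars overlap for Col9a2 alone.

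Fine steps of 10 kb showed how the peaks were packed. Of the 68 steps in the 6 windows, 24 (35.3%) held at least 4 peaks, against 1.92% of 256344 tiles of 10 kb over the genome. At least 8 peaks were found in 5 of the 68 steps (7.35%), 2 of them in Col2a1 and 1 each in Col9a3, Col11a1 and Col11a2, against 0.156% of all tiles. No step was empty in Col2a1, Col9a3 and Col11a2, while 12 of 26 were empty in Col11a1, 4 of 13 in Col9a1 and 2 of 6 in Col9a2. The median distance between neighbouring centres was 1013 bp in Col2a1, 1371 bp in Col11a2, 1526 bp in Col9a3, 1900 bp in Col9a1, 2306 bp in Col11a1 and 3136 bp in Col9a2. For 167 of the 183 members (91.3%) the next peak centre was within 10 kb, against 61.3% of all peaks. In tiles of 100 kb with at least 20 peaks anywhere in the genome this share was 90.4%, so the spacing of the members was near that of other dense places.

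The median member was wider than the median Jun peak, and wide peaks were most frequent in Col2a1 and Col11a2. The members' median width was 129 bp (117 to 137), against 114 bp for all peaks and 118 bp for the peaks in 100 kb tiles with 20 or more, a value inside the members' interval. The central 50% lay between 94.5 and 187 bp among members, against 88 and 151 bp among all peaks. At least 200 bp was reached by 40 members (21.9%, 16.1 to 28.6), against 14.0% of all peaks and 19.7% of the peaks in tiles with 20 or more. By gene the share was 30.0% in Col11a2 (9 of 30), 28.8% in Col2a1 (15 of 52), 18.8% in Col9a1 (6 of 32), 18.2% in Col9a3 (4 of 22), 13.5% in Col11a1 (5 of 37) and 10.0% in Col9a2 (1 of 10). These intervals overlapped for all pairs of genes.

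A width of at least 400 bp was found in 13 members (7.10%, 3.84 to 11.8), against 3.10% of all peaks and 5.27% of those in dense tiles. Of the 13, 7 were in Col2a1, 4 in Col11a2 and 2 in Col9a1. Col9a2, Col9a3 and Col11a1 had none, which for the 37 peaks of Col11a1 allows a share of up to 9.49% by the exact interval, a range that includes the share in all peaks. Col11a1 was also the window without any peak of 300 bp or more, and the same limit of 9.49% includes the 7.16% found in all peaks. Its median width was 113 bp, against 114 bp for all peaks. At the narrow end, 13 members (7.10%) measured under 50 bp, against 6.30% of all peaks.

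**Figure D3:**
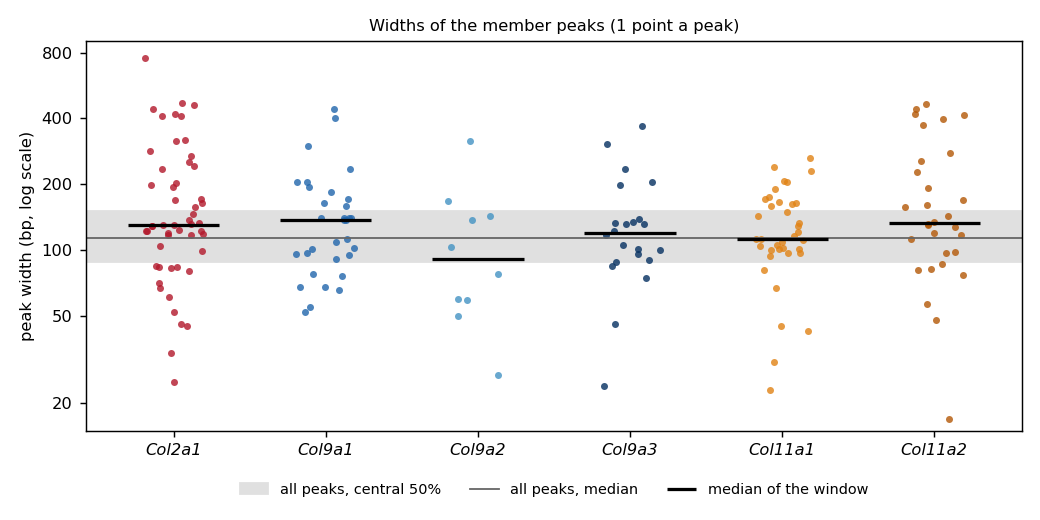
Width in bp (y axis, log scale) of each of the 183 member peaks by gene, with the median of each window as a black bar and the median (114 bp) and central 50% of all Jun peaks as a grey line and band. Points at 400 bp or more appear in Col2a1, Col9a1 and Col11a2 only.

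The list is not in genomic order and its order is not explained, so the places of the members in it are given as a description. The members were found throughout: 14 of 183 (7.65%, 4.25 to 12.5) stood in the first 10% of the list, where 10.0% of all peaks stand by construction. Of the peaks in 100 kb tiles with 20 or more, 13.0% stood there. That share was only just above the members' interval, which grouping of peaks makes too narrow. The members' median place was at 53.7%, against 50.9% for the peaks in those tiles. No member was among the first 2000 rows, and 7 were among the first 5000. The earliest was a peak of 88 bp in Col9a3 (180317171 to 180317258), at place 2056, or 2.07% of the list. The next was a 99 bp peak of Col2a1 (97824466 to 97824564), at place 2973, which lay in the dense group between the wide peaks at 97823236 and 97826575. Col2a1 had 6 peaks in the first 10%, Col9a3 and Col11a2 3 each, Col9a1 2, and Col9a2 and Col11a1 none.

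Median places ran from 41.0% in Col2a1 to 68.4% in Col11a1. In Col2a1 31 of 52 peaks (59.6%) stood in the first 50% of the list, and in Col11a1 13 of 37 (35.1%). Of the 13 members of at least 400 bp, 1 was in the first 10% of the list, the 409 bp peak of Col2a1 at 97805405, and 2 were in the last 10%, the neighbouring 440 and 413 bp peaks of Col11a2. Of all 3071 peaks of that width, 78 were in the first 10% and 471 in the last 10%, and of all 183 members 14 and 19 were. The median place of the 13 was at 55.3%, against 63.7% for all peaks of that width. The 757 bp peak of Col2a1 was at 33.1% of the list.

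**Figure D4:**
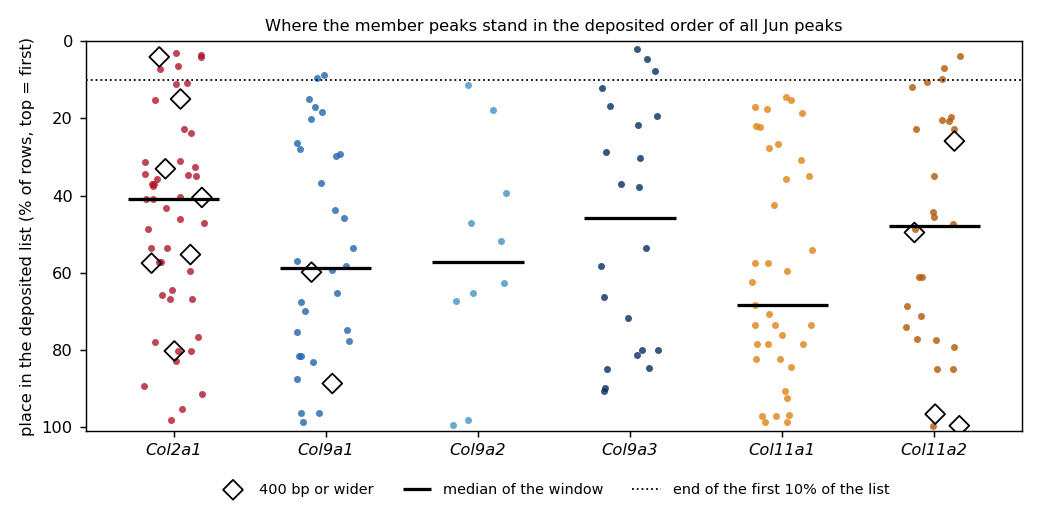
Place of each member peak in the deposited list (y axis, percent of rows, first rows at the top) by gene, with the median of each window as a black bar, peaks of at least 400 bp as diamonds and the end of the first 10% as a dotted line. Col2a1 has the most peaks above the dotted line, 6, and Col9a2 and Col11a1 have none.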

How the data were processed

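The data were the list of Jun peak intervals that the authors deposited, on the mouse build mm9 per the submitters' processing notes. The aligner, the peak caller and the use of the input were stated in no source used here. The name of the list carries the label FDR1, and the threshold it stands for was not explained. The list names no sample and was assigned to the only Jun library among the 6. The members and gene lists were chosen with earlier results of these data known, so nothing here is independent support. Starts were shifted to count from 1. Peaks were counted by midpoint in the 6 windows, in flanks and in consecutive tiles of the same length between the first and last peak of each chromosome (pandas 2.3.3, numpy 2.4.6, Python 3.11.15). Intervals are exact (scipy 1.17.1), and for a ratio come from the binomial share of 2 counts. The functions were tested on simulated data. Neighbouring genes were read as an order of names from RefSeq GRCm38, and all 6 symbols matched. Named are all 6 genes and in each window the widest, earliest-listed, first and last peak and the fullest groups. The 5 kb groups and the search allowing 1 other letter were chosen after seeing the data, as were the peaks named for standing together. Gene structure and motifs in peaks, and peak counts at other cartilage matrix genes, need mm9 positions and were not made.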

Additional observations from a re-analysis of the deposited data

How the results depend on the processing

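Without replicates or tests, a value is said to have moved when an alternative takes it outside its counting interval, as 30 of 71 did. With peaks within 1000 bp merged, density per 100 kb was 23.0 in Col2a1, 28.3 in Col11a2 and 9.62 in Col11a1. The median width of the members was then 167 bp, against 126 bp for all peaks merged in the same way. Merging in windows and tiles alike, an alternative chosen after seeing the data, gave a percentage of tiles with at least as many of 0.0491 for Col11a2, 0.448 for Col9a3, 0.557 for Col9a1, 4.75 for Col11a1 and 5.39 for Col9a2. On autosomes only it was 5.14% for Col9a2. Windows widened by 20 kb had 37.9 per 100 kb in Col2a1 and 32.0 in Col11a2, since they added 1 and 2 peaks. With flanks of 500 kb the ratio for Col11a2 was 5.81. The first and last 50% of the list, which hold fewer peaks by construction, gave 31.0 and 21.0 per 100 kb in Col2a1, 10.0 and 14.6 in Col9a1, 15.7 in both parts in Col9a3, 5.0 and 9.23 in Col11a1, and 28.3 and 21.7 in Col11a2, and the first 6.67 in Col9a2. Other cut-offs moved shares by construction. The next peak was within 2 kb for 59.6% of members, against 33.4% of all peaks and 57.7% of those in dense tiles. Within 5 kb the shares were 79.8%, 47.7% and 78.0%, in the same order. A width of 150 bp was reached by 35.5% of members, 25.7% of all peaks and 31.6% of those in dense tiles. For 300 bp the shares were 10.9%, 7.16% and 11.2%, so the members were not above the dense tiles there. Of the members, 24.0% and 48.6% stood in the first 25% and 50% of the list. Leaving out peaks under 50 bp, narrowing windows by 10 kb and shifting tiles moved no value outside its interval. Counting by any overlap and other promoter letters changed none either. No paired analysis was possible because the list comes from 1 library. Without depth, a place without a peak cannot be called unbound.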

Other observations

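Some peaks that were close on the genome also stood close in the list, which was noticed in the members and then counted. A peak was counted as near when another peak within 100 kb stood no more than 10 rows away. This held for 30 of the 183 members (16.4%), against 7.56% of all peaks and 14.2% of the peaks in tiles of 100 kb with 20 or more. In Col11a1 it held for 10 of 37 members and in Col2a1 for 8 of 52. Among them were peaks of Col2a1 at places 53273 and 53274, 1.49 kb apart in centre, and peaks of Col11a1 at places 77958 and 77959, which are 68.2 kb apart. Along the list, taken in 4 successive parts of 25%, it held for 0 of 44, 2 of 45, 12 of 43 and 16 of 51 members. These shares of 0%, 4.44%, 27.9% and 31.4% stood against 1.36%, 4.83%, 11.2% and 12.9% of all peaks. Shares by part were not computed for the peaks in tiles with 20 or more. The share to be found in a list without any order was not computed, and the cause was not tested.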
